A study of Zea mays with 6 samples.

Results

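Among 17555 probe sets measured in leaf 3 of the maize inbred line A661, 28 were dim in the leaf section without chlorophyll (CL) and several times brighter in the section with chlorophyll (CC). They were chosen by 3 conditions on the deposited expression values, which are on a log2 scale after RMA normalization of the 6 arrays together: a mean under 5 over the 3 CL arrays, a CC mean at least 2 above the CL mean and every CC array above every CL array. All plants of both sections were of line A661 and had grown for 3 weeks at 15 °C and then for 1 week at 25 °C under fluorescent light in cycles of 14 h light and 10 h dark. CL was the distal section and CC, the study's control, the proximal one. From either section the 2 cm nearest to the boundary between them were sampled in 3 biological replicates. The labels do not say how many leaves made up a replicate. Since CL always lay nearer the tip, chlorophyll content, position and tissue age cannot be told apart. The growth temperatures are given alike for both sections. The temperature at which each section formed is therefore unknown and cannot be told apart from these either. Nor can fewer cells of a type be told apart from less RNA per cell in tissue sections.

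Of the 28 probe sets, 5 could be paired with a gene and 23 (82.1%) had no gene named. Of all probe sets, 91.7% could not be paired with a single gene. The 5 genes are umi11, also called cyclotide; ivr2, which encodes a vacuolar acid invertase; BMY1, also called Amy2 and amyb5; and the expansin genes expa1 and expB6. Cyclotides are small plant peptides whose backbone forms a ring held by disulfide bonds, and they are known for defence in the plants where they were first studied. Vacuolar invertases split sucrose into glucose and fructose inside the vacuole, and in growing leaves and other sink tissues the hexoses help to draw in water. Beta-amylases, the enzymes that the name BMY1 stands for, release maltose from starch. Expansins loosen the wall while cells enlarge, alpha-expansins in most land plants and beta-expansins with a large family in grasses.

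The chosen probe sets were low in CL but not all at the bottom of the arrays. Their CL means ran from 2.95 to 4.96 with a median of 4.16, and their CC means from 5.38 to 8.81 with a median of 6.75. A mean under 5 is not rare, since 6530 probe sets (37.2%) had one in CL. The members stood between the 10.1th and the 36.8th percentile of all CL means, and 11 of the 28 lay under the 25th percentile, a value of 3.97. On 8 of the 28 at least 1 CL array read 5 or more. In CC they stood between the 40.5th and the 81.0th percentile, and 20 of the 28 exceeded the median CC mean of 6.29. Probes differ in how well they bind, so a position on the array scale is not a transcript level that can be set against that of another gene. The values also give no detection call, so whether a transcript was absent from CL was not tested, and the set is described here as dim in CL rather than as switched off.

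**Figure D1:**
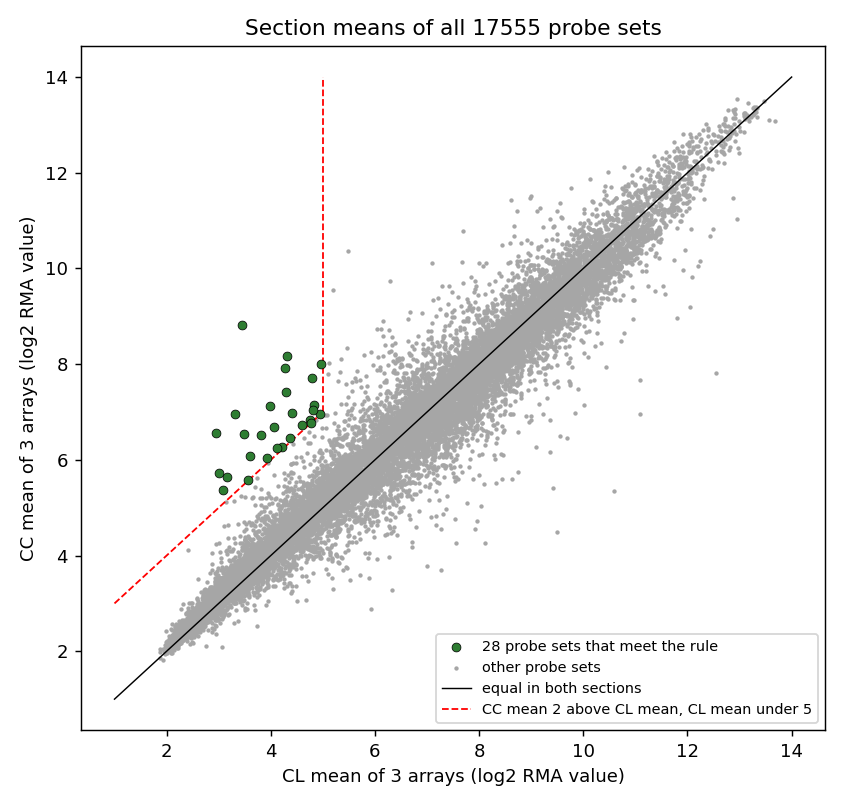
Mean log2 expression of every probe set in CL (horizontal axis) and CC (vertical axis), each over 3 arrays. The 28 chosen probe sets (green) lie left of the CL ceiling of 5 and above the dashed line 2 units over equality, with CL means of 2.95 to 4.96.

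The difference between the sections, which chose the probe sets and is given without a test, had a median of -2.54 (CL minus CC, log2) and reached -5.36. It was 3 or more in size for 9 probe sets, between 2.5 and 3 for 5, and under 2.5 for 14. Only 78 of all probe sets (0.444%) were at least 2 lower in CL, and the other 50 of these had CL means of 5 or more. The distance from the highest CL array to the lowest CC array had a median of 1.60 and ran from 0.09 to 4.52. It was 1 or more for 22 of the 28. In limma's linear model over all probe sets, 24 of the 28 were lower in CL at the threshold of 0.05 for the adjusted p, where 15.2% of all probe sets were. Because the same contrast chose the members, that count is no evidence about them.

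**Figure D2:**
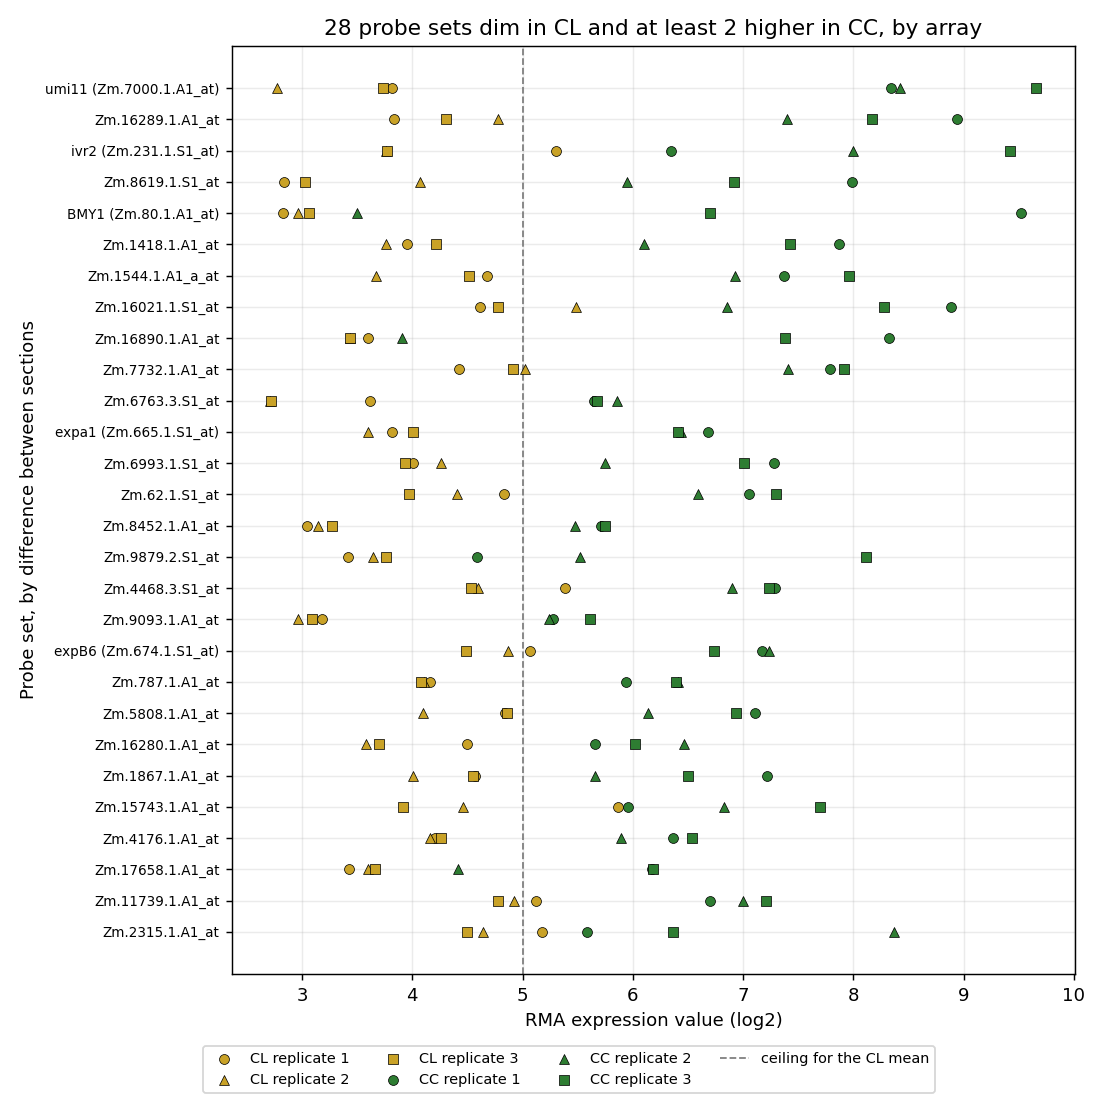
Log2 expression of the 28 probe sets on each of the 3 CL arrays (yellow) and 3 CC arrays (green), ordered by the difference between section means, with the ceiling of 5 as a dashed line. The umi11 probe set at the top has the widest gap between sections (4.52) and Zm.15743.1.A1_at the narrowest (0.09).

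The cyclotide gene umi11 (NCBI gene 606488) had the largest difference of the set. Its probe set read 3.82, 2.78 and 3.73 on CL replicates 1 to 3, against 8.34, 8.43 and 9.66 on CC replicates 1 to 3. The CC arrays spanned 1.32 and the CL arrays 1.04, while a gap of 4.52 lay between the sections. Section means were 3.44 ± 0.58 for CL and 8.81 ± 0.74 for CC (n = 3 arrays, SD). The CL level was 41.2-fold lower, with umi11 at the 17.8th percentile of all probe sets in CL and at the 81.0th in CC. No other gene on the annotated part of the array carried the name cyclotide.

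The invertase gene ivr2 (NCBI gene 542324) varied widely in both sections. It read 5.30, 3.76 and 3.77 on CL replicates 1 to 3, against 6.35, 7.99 and 9.42 on CC replicates 1 to 3. CL replicate 1 was well above the other CL arrays and CC replicate 1 well below the other CC arrays, so these 2 stood 1.05 apart. The means of ivr2 were 4.28 ± 0.89 for CL and 7.92 ± 1.54 for CC (n = 3 arrays, SD), so CL was 12.5-fold lower. That fold rests on single CC arrays, since leaving out CC replicate 1 made it 21.5 and leaving out CC replicate 3 made it 7.42.

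The other invertase genes that the annotation names were measured by 4 probe sets and did not move as a group. The probe set of the cell wall invertase gene incw1 rose in CL, with 9.78 ± 0.08 for CL and 7.94 ± 0.69 for CC (n = 3 arrays, SD; limma adjusted p = 0.00709). Its 3 CL arrays were all above its 3 CC arrays, the reverse of ivr2. One of 2 probe sets of incw3, named for the same enzyme family, fell by 0.46 (limma adjusted p = 0.0331), and the other had a log2 difference (CL minus CC) of -0.06. The probe set of INCW2, also called mn1, a cell wall invertase known from the developing kernel, had a difference of -0.37 and did not pass (limma adjusted p = 0.0545). Of the 5 invertase probe sets 2 were lower and 1 was higher in CL, but ivr2, chosen on this same contrast, is 1 of those 2. With ivr2 included, the median difference of the 5 was -0.37 beside -0.05 for all probe sets. Over all probe sets, 15.2% were called lower and 15.9% higher in CL.

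The amylase gene BMY1 (NCBI gene 542472) had even CL values and very uneven CC values. The BMY1 probe set read 2.83, 2.96 and 3.06 on CL replicates 1 to 3, against 9.52, 3.50 and 6.70 on CC replicates 1 to 3. CC replicate 2 was thus only 0.43 above the highest CL array, while CC replicate 1 was 6.45 above it. With means of 2.95 ± 0.12 for CL and 6.57 ± 3.01 for CC (n = 3 arrays, SD), BMY1 had the largest CC spread of the 28. The BMY1 difference (CL minus CC, log2) of -3.62 became -2.14 without CC replicate 1 and -5.15 without CC replicate 2. It is 1 of the 4 members that did not pass the limma threshold, and no other amylase was named on the array.

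The alpha-expansin gene expa1 (NCBI gene 541904) was the most even of the named genes. It read 3.82, 3.60 and 4.01 on CL replicates 1 to 3, against 6.69, 6.44 and 6.41 on CC replicates 1 to 3. Each section's arrays kept within 0.41 of each other, and the gap between sections was 2.41. The means of expa1 were 3.81 ± 0.21 for CL and 6.51 ± 0.15 for CC (n = 3 arrays, SD), so CL was 6.52-fold lower.

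The beta-expansin gene expB6 (NCBI gene 542566) sat near the CL ceiling of the rule. Its values were 5.07, 4.87 and 4.48 on CL replicates 1 to 3, against 7.17, 7.24 and 6.73 on CC replicates 1 to 3. Both sections were again even, with ranges of 0.59 in CL and 0.50 in CC. Means of 4.81 ± 0.30 for CL and 7.05 ± 0.27 for CC (n = 3 arrays, SD) made expB6 4.73-fold lower in CL.

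These 2 genes had the largest differences of the named expansins, which the choice of members fixes. The annotation named 17 probe sets of 12 expansin genes, of which 16 had a CL mean under 5 and 13 also a CC mean under 5. Expansins among the probe sets with no gene named are not counted. Of the 15 expansin probe sets that are not members, 3 were lower in CL and 1 was higher, beside 15.2% lower and 15.9% higher over all probe sets. The alpha-expansin gene EXPA5 fell by 0.94, with 4.14 ± 0.13 for CL and 5.08 ± 0.36 for CC (n = 3 arrays, SD; limma adjusted p = 0.0109). The beta-expansin genes expB4 and expB3 fell by 0.87 and 0.44 (limma adjusted p of 0.012 and 0.0105). The probe set that rose was 1 of 3 for expA4, with 5.51 ± 0.07 for CL and 5.05 ± 0.13 for CC (n = 3 arrays, SD; limma adjusted p = 0.015), whereas the other 2 had differences of -0.21 and -0.02 and did not pass. These 2 were among 11 expansin probe sets that did not pass, as were expB7 with a difference of -0.54 and expA3 with -0.04. Over the 17 probe sets, members included, the median difference was -0.23, beside -0.05 for all probe sets.

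**Figure D3:**
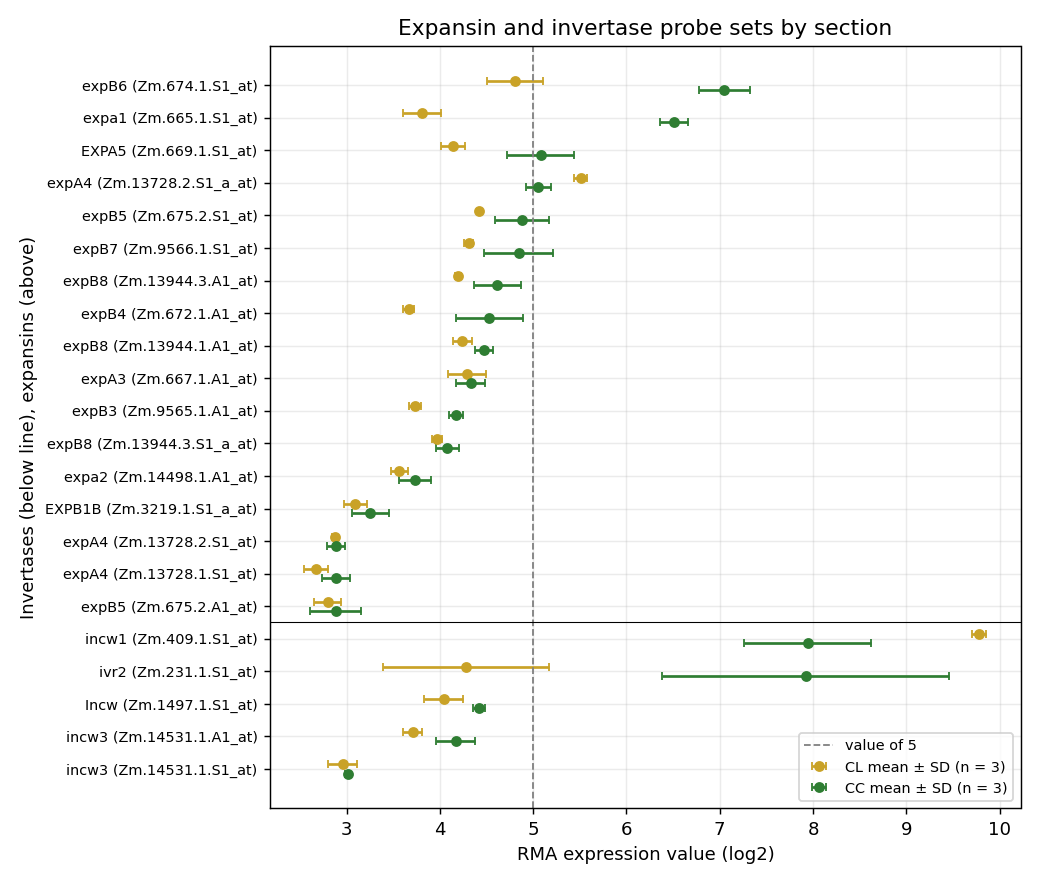
Mean log2 expression ± SD (n = 3) in CL (yellow) and CC (green) for 17 expansin probe sets, above the line, and 5 invertase probe sets, below it. The 2 chosen expansins, expB6 and expa1, have CC means of 7.05 and 6.51 and CL means of 4.81 and 3.81, most other expansins have both means under 5, and ivr2 and incw1 differ in opposite directions.

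Of the 23 members with no gene named, Zm.16289.1.A1_at had the largest difference. It read 3.84, 4.78 and 4.31 on CL replicates 1 to 3, against 8.94, 7.40 and 8.17 on CC replicates 1 to 3, and the sections were 2.62 apart at their nearest arrays. Next came Zm.8619.1.S1_at, with 2.83, 4.07 and 3.03 in CL against 7.99, 5.95 and 6.91 in CC. In both of these probe sets CL replicate 2 was the highest CL array and CC replicate 2 the lowest CC array. The differences (CL minus CC, log2) were -3.16 for Zm.1418.1.A1_at, -3.13 for Zm.1544.1.A1_a_at and -3.05 for Zm.16021.1.S1_at. Zm.16021.1.S1_at was the member nearest to the CL ceiling, with a CL mean of 4.96 and 5.49 on CL replicate 2. The probe set Zm.7732.1.A1_at was bright and even in CC, at 7.79, 7.41 and 7.91, against 4.43, 5.02 and 4.91 in CL. For Zm.6993.1.S1_at the difference was -2.61 and for Zm.62.1.S1_at it was -2.58. The 11 members with no gene that are not named by the rule for large differences or wide CC spread had differences of -2.5 to -2.02, CL means of 3.08 to 4.94 and CC means of 5.38 to 7.14.

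Zm.6763.3.S1_at was the most even member in CC. It read 3.62, 2.71 and 2.71 on CL replicates 1 to 3, against 5.65, 5.86 and 5.67 on CC replicates 1 to 3. Its CC arrays kept within 0.21, and CL replicate 1 stood above the other CL arrays. Probe set IDs of this array share a number where their sequences were grouped together at its design, and the ID group of this member holds 5 other probe sets. One of them is Zm.6763.1.S1_at, which the annotation pairs with the rubisco small subunit gene rbcS, also called rbcs1. That probe set was near the top of the arrays in both sections, at 12.81 ± 0.02 for CL and 12.90 ± 0.05 for CC (n = 3 arrays, SD; limma adjusted p = 0.43).

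The partner whose ID differs from the member's in the last letter alone, Zm.6763.3.A1_at, fell too. It read 8.83, 7.65 and 6.61 on CL replicates 1 to 3, against 10.80, 10.89 and 10.68 on CC replicates 1 to 3 (difference -3.09, limma adjusted p = 0.00609). Its CL mean of 7.70 kept it out of the set, although all its CC arrays lay above all its CL arrays. The 3 other probe sets of the ID group had differences of 0.55, -0.03 and -0.10, of which the first passed as higher in CL (limma adjusted p = 0.00957). A large difference was therefore measured in 2 of 6 probe sets of 1 ID group, both with the same middle number. The annotation gives neither of these 2 a gene.

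Partners of the same ID group existed for 4 of the 28 members, 10 probe sets in all. Of these 10, 1 was lower and 3 were higher in CL by the limma test, where 15.2% and 15.9% of all probe sets were. Both partners of Zm.1544.1.A1_a_at were bright and higher in CL, with differences of 0.32 and 0.68 (limma adjusted p of 0.0498 and 0.00522), opposite to the member at -3.13. The partners of Zm.4468.3.S1_at had differences of 0.21 each, and the partner of Zm.9879.2.S1_at had -0.17; these 3 did not pass. Each of the 28 members had an ID group of its own. The share of members that their ID marks as possibly shared between transcripts or sequences (endings _a_at, _s_at and _x_at) was 1 of 28, against 12.5% of all probe sets, and 0 of 28 came from the ZmAffx part of the array, which held 2179 probe sets (12.4%).

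Spread within a section was larger among the members than among other probe sets of the same brightness. The median SD over the CL arrays was 0.32 for the members and 0.11 for the 4654 other probe sets whose CL means fell in the members' range. Over the CC arrays the median SD of the members was 0.63, against 0.14 for 7087 others in the same range of CC means. The CC arrays of a member differed by 2 or more in 7 of 28 (25.0%), against 67 of those 7087 (0.945%). The rule set no limit on the spread within a section, but it used the same values, so these shares describe the set without a test.

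The 7 members with a CC range of 2 or more split by which CC array was low. CC replicate 2 was the lowest in 4, namely BMY1, Zm.16890.1.A1_at, Zm.8619.1.S1_at and Zm.16021.1.S1_at, and in each of them CC replicate 1 was the highest. Zm.16890.1.A1_at read 3.60, 3.44 and 3.43 on CL replicates 1 to 3, against 8.32, 3.91 and 7.38 on CC replicates 1 to 3. As in BMY1, its CC replicate 2 was barely above the CL arrays. CC replicate 1 was the lowest in the other 3, namely ivr2, Zm.9879.2.S1_at and Zm.2315.1.A1_at. Zm.9879.2.S1_at read 3.41, 3.64 and 3.77 in CL against 4.58, 5.52 and 8.12 in CC, and Zm.2315.1.A1_at 5.18, 4.64 and 4.49 in CL against 5.58, 8.37 and 6.37 in CC. The 4 members that did not pass the limma threshold were BMY1, Zm.16890.1.A1_at, Zm.9879.2.S1_at and Zm.2315.1.A1_at, each with a single CC array near the CL values or far above the other 2. Leaving out 1 CC array moved the fold of these 4, of ivr2 and of Zm.17658.1.A1_at by over 1.5 times. Zm.16890.1.A1_at, with a difference of -3.04, had -2.15 without CC replicate 1 and -4.36 without CC replicate 2. The other 22 members moved by less, whichever of the 6 arrays was left out.

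**Figure D4:**
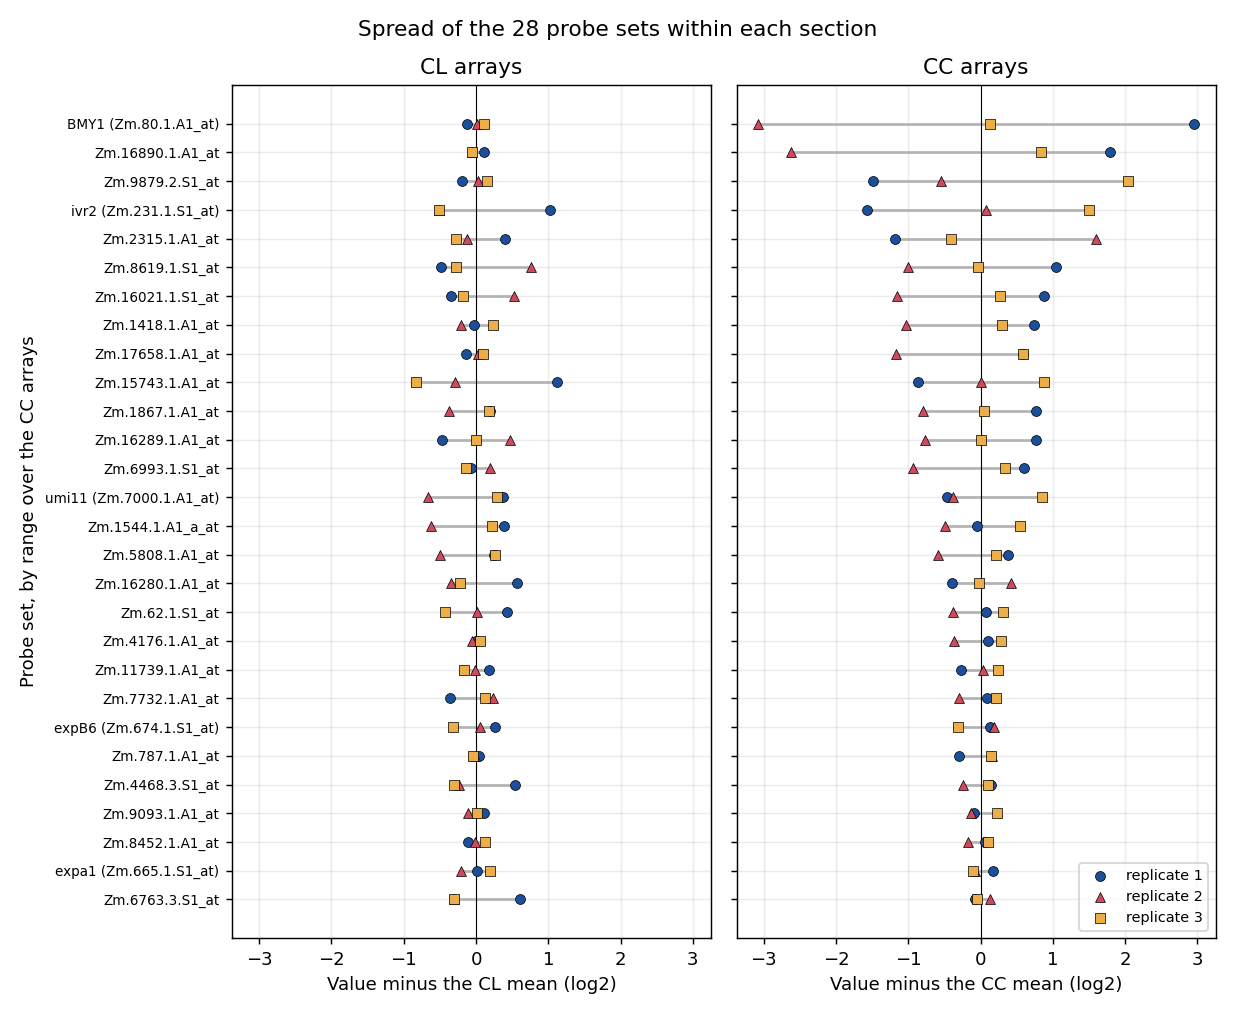
Each array's log2 value minus its section mean, for CL (left) and CC (right), with probe sets ordered by their range over the CC arrays. Gray bars span the range over the arrays of the section shown. The CC ranges run from 6.02 for BMY1 at the top to 0.21 for Zm.6763.3.S1_at at the bottom, and replicate 2 is the lowest CC array in 17 of 28.

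The order of the CC arrays was counted beside that of all probe sets with every CC array above every CL array, which numbered 4698 (26.8% of those tested) and include the 28. CC replicate 2 was the lowest CC array in 17 of 28 members (60.7%), against 23.3% of the 4698. CC replicate 1 was the lowest in 9 (32.1%), against 55.2%, and CC replicate 3 in 2 (7.14%), against 21.5%. The order with CC replicate 1 highest and CC replicate 2 lowest was seen in 10 members (35.7%) and in 8.62% of the wider group, and it held for 6 of the 9 members with a difference of 3 or more. In those 10 members the medians were 7.93 on CC replicate 1, 6.03 on CC replicate 2 and 7.12 on CC replicate 3. Over all probe sets CC replicates 1 and 2 had a median difference of -0.0045 (CC replicate 1 minus CC replicate 2). In CL, replicate 1 was the highest array in 15 of 28 (53.6%), against 52.4% of the wider group. CL replicate 2 was the lowest in 11 (39.3%), against 50.4%, CL replicate 3 in 9 (32.1%), against 28.2%, and CL replicate 1 in 8 (28.6%), against 21.3%. Members on the same array share its RNA and are not independent, and no test was made of these orders.

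In contrast, 13 members had CC arrays within 1 of each other, and 11 of these had no gene named. Their CC means ran from 5.38 to 7.70 and their differences from -2.92 to -2.02, with a gap of 1.16 to 2.41 between the sections' nearest arrays. None of the 9 members with a difference of 3 or more was among them.

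**Figure D5:**
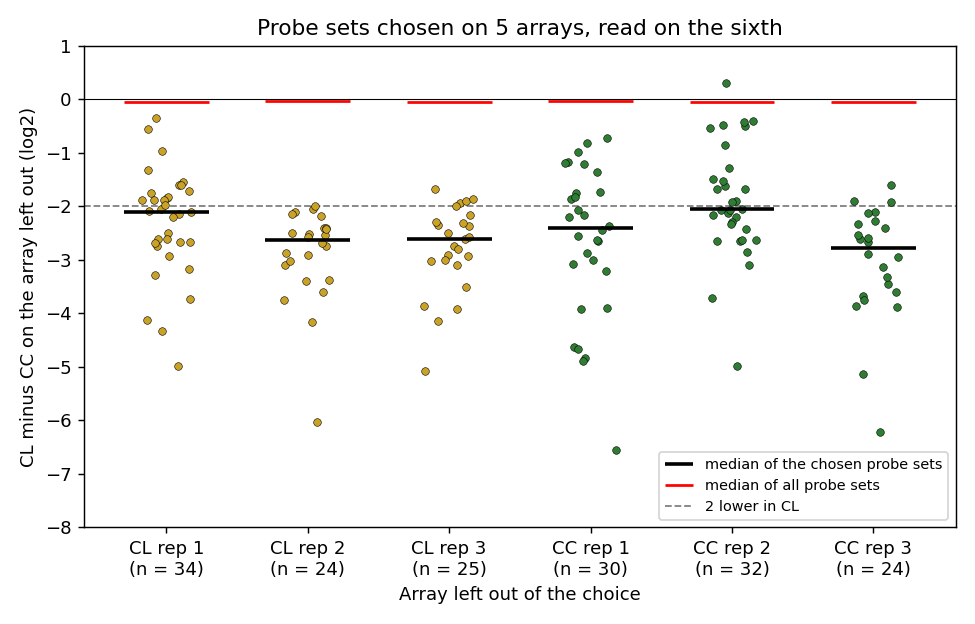
Log2 difference (CL minus CC) between the array left out and the mean of the other section's 3 arrays, for probe sets chosen by the same rule on the other 5 arrays, with points colored by the section of that array (yellow CL, green CC). Medians of the chosen probe sets (black) lie between -2.77 and -2.06 and those of all probe sets (red) between -0.05 and -0.02.

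Each array was also read after the choice had been made without it, so that its own values had no part in the choice. They were set against the mean of the other section's 3 arrays, which did take part, so the differences below are partly fixed by the choice and are given as a description. All arrays had also been normalized together by the authors. Between 24 and 34 probe sets were chosen on 5 arrays. On the left-out array their median difference (CL minus CC, log2) was -2.10 for CL replicate 1, -2.63 for CL replicate 2, -2.61 for CL replicate 3, -2.41 for CC replicate 1, -2.06 for CC replicate 2 and -2.77 for CC replicate 3. For all probe sets the same medians lay between -0.05 and -0.02. On the arrays used for the choice the medians of the same probe sets lay between -2.65 and -2.40, with -2.51 where CL replicate 1 was left out and -2.60 where CC replicate 2 was. A size of 2 or more was kept by 17 of 32 on CC replicate 2 and by 19 of 34 on CL replicate 1, but by 23 of 24 on CL replicate 2.

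The rule chose 18 of the 28 in each of these 6 choices, and all 5 named genes were among the 18. The other 10 included all 5 members nearest to the limit for the difference. Just inside the limit for the difference were 5 members with values of -2.08 to -2.0, and just outside were 5 probe sets with -1.98 to -1.88. Just inside the CL ceiling lay CL means of 4.78 to 4.96, and just outside 5.09 to 5.33. The condition on overlap removed no probe set, because all 28 that met the other conditions met it too. The narrowest was Zm.15743.1.A1_at, singled out here after its values were seen, with 5.86, 4.46 and 3.92 on CL replicates 1 to 3 against 5.95, 6.82 and 7.69 on CC replicates 1 to 3.

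Some named genes lay just outside the set. With a limit of 1.5 for the difference 53 probe sets qualified, and 3 of the 25 added had a gene: IRL, tub5 and gar2. The beta-tubulin gene tub5 read 3.21, 3.32 and 3.37 on CL replicates 1 to 3, against 5.97, 3.78 and 5.65 on CC replicates 1 to 3, and gar2 read 3.81, 3.53 and 3.55 in CL against 6.12, 4.03 and 5.45 in CC. In both, as in BMY1, CC replicate 1 was the highest and CC replicate 2 stood just above CL. IRL, also called irl1, had means of 4.87 ± 0.56 for CL and 6.83 ± 0.59 for CC (n = 3 arrays, SD), a difference of -1.96. The order differed in IRL, which read 6.23, 7.40 and 6.86 on CC replicates 1 to 3, so CC replicate 1 was the lowest and CC replicate 2 the highest.

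The opposite rule, a CC mean under 5 and a CL mean at least 2 higher with no overlap, was met by 24 probe sets, of which 8 had a gene named. Their median difference of 2.54 was of the size found here, but both rules set the same limits, so this likeness is partly fixed by them. None of those 24 had a range of 2 or more over the arrays of the brighter section, where 7 of these 28 did. The typical spread was closer, with a median SD in the brighter section of 0.57 for those 24 and 0.63 for these 28. In the dimmer section the median SD was 0.39 for those 24 and 0.32 for these 28.

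Leaf tissue was recognizable in both sections by its markers. Of 9 leaf tissue markers 7 were matched, all with means of 10.12 or more in CL and 11.86 or more in CC. Of these 7, 3 were lower and 0 higher in CL: psad1, a photosystem I subunit gene (difference -1.74), lhcb5, a light-harvesting antenna gene (-0.58), and rca1, for rubisco activase (-0.32). Over all probe sets 15.2% were lower and 15.9% higher, to be set beside this and the counts that follow. The summed linear level of these 7 was 15.46 to 15.53 (log2) in CL and 15.63 to 15.66 in CC. Of 5 matched vascular markers 3 were lower and 0 higher in CL: sut1 (difference -0.87) and the secondary wall cellulose synthase genes cesa10 (-0.86) and cesa11 (-0.87). Among the vascular markers, cesa12 (-0.84) did not pass, nor did sus1, which went the opposite way (0.33). The summed vascular levels were 10.17 to 10.56 in CL and 10.76 to 11.20 in CC. Of 4 matched epidermis and wax markers 2 were lower, with sums of 9.20 to 9.55 in CL and 9.35 to 10.14 in CC. Of 4 matched markers of dividing cells 3 were higher in CL, with sums of 8.62 to 8.71 in CL and 8.12 to 8.25 in CC. The other marker, cycd1, went the opposite way with a difference of -0.50 and did not pass. Mesophyll markers (4 matched, 1 higher in CL) had sums of 14.71 to 14.73 in CL and 14.66 to 14.69 in CC. Bundle sheath markers (3 matched, 1 lower) had sums of 14.29 to 14.31 in CL and 14.36 to 14.41 in CC. Both lists share genes with the leaf tissue list, and linear sums mostly follow the brightest markers. The mesophyll marker higher in CL was ppt1, with a difference of 0.75. Means under 5 in at least 1 section were found for 3 vascular markers, 1 wax marker and 1 division marker. The part of cell type composition in the members' differences was not tested.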

How the data were processed

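Total RNA (250 ng per sample) from 3 CL and 3 CC samples was biotin-labelled for single-colour Affymetrix 3′ arrays, per the labels' protocols. The authors deposited log2 expression values made by RMA. The submitters' processing notes also list Affymetrix Expression Console and limma, with no versions, and RMA includes quantile normalization across arrays. The table held 17555 probe sets, 6 arrays, 0 missing values and 0 unused columns. No scanner files were used, so signal over background is unknown, and 3 arrays per section limit the precision.

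Genes were named through an older platform annotation (1452 probe sets with 1 gene), and symbols were updated through gene IDs in a RefSeq table. Nucleotide and protein sequences were not used here. The members and gene lists were chosen with earlier results of these data known. Every member with 1 gene is named, and of the others the 10 with the largest difference and the 3 with the widest CC range. Amylase and cyclotide genes, ID groups and genes just outside the rule were looked at after values were seen. The list of histone genes named among the markers was not used.

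The background test was limma 3.58.1 (R 4.3.3), CL minus CC, on all probe sets, without a filter or block, with Benjamini-Hochberg adjustment and a threshold of 0.05. It was tested on simulated data with independent noise, no pairing and large planted changes only, which did not cover small changes. It carries no evidence on members, which the same contrast chose. SD is over 3 arrays. P-values set the difference between sections against the spread between biological replicates as labelled, with the 6 arrays taken as independent. Alternatives were other limits, medians, scalings, a replicate block, eBayes settings, a dim filter and each array left out.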

Additional observations from a re-analysis of the deposited data

How the results depend on the processing

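The count of 28 probe sets became 53 with a limit of 1.5 for the difference and 14 with a limit of 2.5. Under 7 other settings (a CL ceiling of 4.5 or 5.5, no condition on overlap, group medians, equal array medians, a further quantile normalization, only plain _at probe sets) it was 20 to 37, and without single arrays 24 to 34. The differences of the 5 named members kept their sign under 45 alternatives. With medians or a single array left out the sign was fixed by the rule, which put every CC array above every CL array. Of the 45 alternatives, 44 moved the differences by less than the replicate SD, which is large for ivr2 and BMY1. Moves of over 1.5 times in fold came from 5 of the 45: umi11 had -4.69 with medians, ivr2 had -4.43 without CC replicate 1 and -2.89 without CC replicate 3, and BMY1 had -2.14 without CC replicate 1 and -5.15 without CC replicate 2. The limma counts of 2668 lower and 2789 higher probe sets fell to 850 and 1020 with the replicate number as a block. The labels do not say whether CL and CC samples of the same number came from the same leaves. Deviations of same-numbered arrays from their section means correlated at -0.54, -0.35 and -0.39, which cannot settle whether the samples are paired. The main fit treated them as independent. Without single arrays the counts were 1082 to 2865 lower (fewest without CL replicate 3) and 1308 to 2818 higher; those without CL replicate 2, CC replicate 2 or CC replicate 3 also moved by over 1.5 times. With equal array medians the split was 3196 lower and 2392 higher. Other fits (an intensity trend, robust eBayes, a further quantile normalization, the dimmest 25% left out) kept both counts within 1.5 times. The causes were not tested. RMA compresses differences at the dim end, where the CL means of the members lie.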
